A study of Mus musculus with 2 samples.

Results

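TAC2 is 1 of 8 cell type labels that the authors gave to cells of the mouse corneal epithelium, and the cells described here are all those that carry it in the deposited cell table. There were 1363 TAC2 cells among 17808 labelled cells, 657 in the control library and 706 in the diabetic library. TAC stands in this field for transit-amplifying cell. The other labels were LSC, Basal, TAC1, Wing, Squam, Conj and Immune, and how clusters were named is not given in the sources used here. Both libraries came from male C57BL/6J mice aged 20 weeks, and each was a pool of 4 corneas from 2 mice. The diabetic mice had been given streptozotocin, a beta cell toxin, as 1 dose of 160 mg/kg, and had stayed above 250 mg/dL of blood glucose for the 12 weeks of the study. The control mice had been given the citrate buffer that carries the drug. Corneal epithelium was lifted off with an enzyme, dissociated with trypsin and run on the Chromium 3′ v3.1 assay, which counts each captured molecule once by its unique molecular identifier (UMI). Each group is 1 library, so diabetes and anything else that differed between the libraries cannot be told apart, and no test between groups was possible.

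The corneal epithelium renews itself throughout life. Stem cells at the limbus, the rim of the cornea, give rise to basal cells that divide for a limited time, and their daughters move up through the wing cell layers and are shed from the surface as squamous cells. A dividing cell copies its DNA in S phase, when replication-dependent histone genes are transcribed to package the new DNA, and then passes through G2 into mitosis, when cyclin B, the kinase Cdk1 and the spindle genes are at their peak. Messages of replication-dependent histones mostly end in a stem-loop and lack a poly(A) tail, so an assay that primes on poly(A) captures only part of them. Many histone genes are also near-identical copies, and the counts of single members depend on how shared reads were assigned.

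TAC2 cells were deeper in the diabetic library than in the control library. The median was 16629 UMIs per cell in control (quartiles 11440 and 25646) and 24500 in diabetic TAC2 cells (quartiles 15932 and 30184), a ratio of 1.47. That ratio was 1.33 in LSC, 1.17 in TAC1, 1.10 in Basal and 1.07 over all cells. The median number of genes seen was 3748 in control and 4486 in diabetic TAC2 cells, and the median mitochondrial share was 1.66% and 1.75%. Summed over cells, TAC2 held 12881914 UMIs in control and 17684494 in diabetic. TAC2 made up 6.84% of the control library (exact binomial 95% interval 6.34 to 7.36) and 8.61% of the diabetic library (8.01 to 9.23), a ratio of 1.26, and these intervals cover counting error only. The libraries shared 18 cell barcodes, none of which was labelled TAC2 in both. Because depth moved with group, levels below are counts per 1000000 UMIs (CPM) of the summed cells, and shares of cells were taken after each cell had been thinned at random to 10000 UMIs. Thinning left out 120 control and 46 diabetic TAC2 cells that were shallower, and kept 537 and 660.

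**Figure D1:**
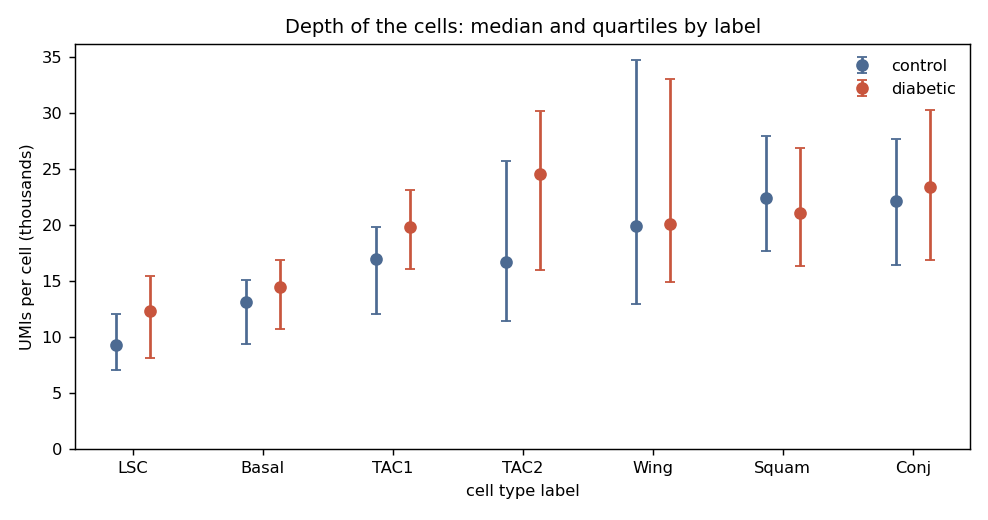
UMIs per cell, in units of 1000, by label and library; points are medians over cells and bars reach from the lower to the upper quartile. TAC2 shows the largest ratio of the 7 labels drawn, with medians of 16629 in control and 24500 in diabetic cells.

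The genes that set TAC2 apart were genes of histone synthesis and mitosis, which describes the cells that were clustered and is not a test. Of the 3 markers of the label, the linker histone Hist1h1b (chr13:21779883-21780625, minus strand, GRCm38) stood at 641 CPM in TAC2 and 7.45 CPM in all other labels together, an 86.0-fold difference. The H2A gene Hist1h2ap stood at 860 CPM against 17.1 CPM (50.4-fold). Ube2c, the ubiquitin-conjugating enzyme that works with the anaphase-promoting complex to end mitosis, stood at 496 CPM (chr2:164769898-164778822, plus strand) against 5.70 CPM (87.1-fold). All 3 were also far below TAC2 in TAC1, at 26.8 CPM for Hist1h1b, 32.8 CPM for Hist1h2ap and 9.33 CPM for Ube2c.

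By the ratio of TAC2 to all other labels after adding 10 CPM to each, the 15 leading genes held 3 histones, 10 members of the list of G2 and M phase genes, the tubulin regulator Stmn1 and the centromeric histone Cenpa. Nusap1, a spindle protein, had the widest contrast, at 221 CPM in TAC2 and 1.53 CPM elsewhere (144-fold). Cyclin B2 (Ccnb2) followed at 142 CPM against 1.41 CPM (101-fold). The most abundant of the 15 was Stmn1, at 1086 CPM in TAC2, 219 CPM in TAC1 and 36.8 CPM in Basal. Birc5 (survivin), Top2a (DNA topoisomerase), Cenpf (a kinetochore protein) and the proliferation marker Mki67 lay between 360 and 442 CPM in TAC2. The lowest level of any of the 15 genes in TAC2 was 142 CPM. In both libraries each of the 15 was higher in TAC2 than in any other label drawn.

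**Figure D2:**
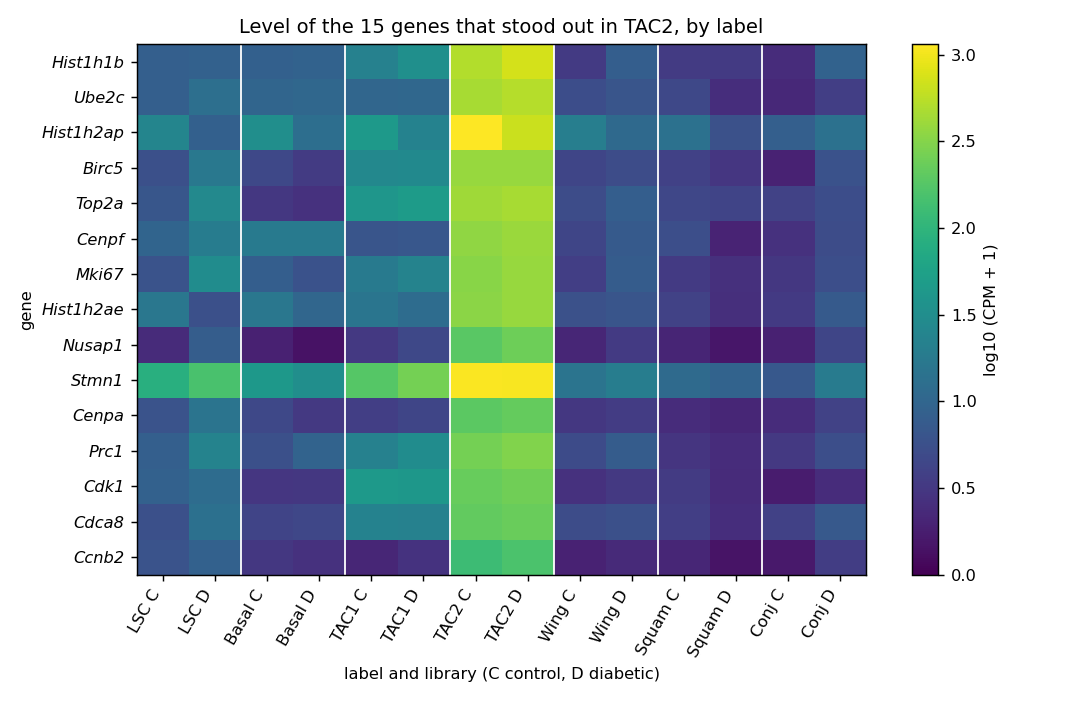
Level of the 15 leading TAC2 genes, as log10 (CPM + 1) by colour, in each label (columns, C control and D diabetic). The TAC2 columns are the brightest in every row, and Stmn1, Top2a and Cdk1 are next highest in TAC1, for example at 1086 CPM in TAC2 and 219 CPM in TAC1 for Stmn1.

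The 10 leading genes of TAC2 against TAC1 were mitotic and histone genes. The list of 32 G2 and M phase genes summed to 5005 CPM in control and 5559 CPM in diabetic TAC2 cells, and to 181 CPM in the other labels together. S phase genes were in both labels: the 20 genes of that list summed to 1405 and 1354 CPM in TAC2 and to 1802 and 1732 CPM in TAC1. Pcna, the DNA polymerase clamp, was close in both (190 and 185 CPM in TAC2, 208 and 213 CPM in TAC1), and its partner Pclaf was higher in TAC2 (363 against 113 CPM). Some genes of DNA replication and repair were higher in TAC1. Ung, which removes uracil from DNA, stood at 54.5 CPM in TAC1 and 8.34 CPM in TAC2, 6.53-fold lower. The helicase subunits Mcm3 (118 against 48.9 CPM), Mcm6 (141 against 60.03 CPM) and Mcm2 (68.0 against 27.8 CPM) and the helicase partner Gins2 (77.9 against 31.0 CPM) were 2.35 to 2.51-fold lower in TAC2. Cyclin D2 (Ccnd2), which drives entry into the cycle, was at 155 CPM in TAC2, 324 CPM in TAC1 and 288 CPM in Basal. These genes lower in TAC2 were picked after their values were seen.

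TAC2 cells also expressed the Basal markers. The 6 Basal markers summed to 8314 CPM in control and 8587 CPM in diabetic TAC2 cells, beside 8767 and 8927 CPM in the Basal label. These markers do not single out Basal, since they summed to 12005 and 12717 CPM in Wing and to 11652 and 11177 CPM in LSC. Krt5, the basal keratin, stood at 6132 and 6206 CPM, and Trp63, the transcription factor of stratified epithelia, at 148 and 161 CPM. Markers of cells outside the epithelium were low. The 8 immune markers summed to 0.233 CPM in control and 0.565 CPM in diabetic TAC2 cells, with Ptprc, Lyz2, Cd3e and Cd52 at 0 in both. The 3 fibroblast markers in the matrix (Dcn, Vim and Pdgfra) summed to 1.79 and 4.47 CPM, the 4 melanocyte markers to 6.83 and 5.94 CPM with Mlana at 0, and the 5 endothelial markers to 9.55 and 18.2 CPM with Tie1 at 0. Of the endothelial markers, Atp1b1 was called higher in diabetic TAC2 cells, at 3.73 and 12.8 CPM. The 4 Schwann cell markers summed to 44.5 and 55.1 CPM, nearly all of it Mbp (41.8 and 52.9 CPM), which stood at 94.8 CPM in the other labels.

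Promoters of the mitotic genes are shown because genes of G2 and M phase are known to share short promoter letters: CCAAT, which the factor NF-Y binds, and TTTGAA or TTCGAA, the cell cycle homology region read by the MuvB complex. In the 250 bases before the RefSeq start site (GRCm38.p6), all 10 G2 and M phase genes among the 15 had an entry. CCAAT occurred on either strand in 8 of the 10, and in 7 of them at 2 or more positions, with overlapping matches on opposite strands counted separately. TTTGAA occurred in 6 of the 10, and all 6 also held CCAAT. Prc1 is listed with 2 start sites, of which 1 held TTTGAA. Over all 32851 promoters of the same length, 33.8% held CCAAT, 16.0% held TTTGAA, 1.34% held TTCGAA and 5.55% held both CCAAT and TTTGAA. These are matches of letters and do not show binding. Below, capitals mark these 3 motifs on either strand, and bases inside the gene as annotated by GENCODE are left off.
Ube2c, chr2:164769679-164769897, plus strand: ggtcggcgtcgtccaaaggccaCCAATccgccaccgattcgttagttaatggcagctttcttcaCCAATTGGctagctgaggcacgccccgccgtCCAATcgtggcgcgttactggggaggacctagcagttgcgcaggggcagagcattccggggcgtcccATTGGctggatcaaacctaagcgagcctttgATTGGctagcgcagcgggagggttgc
Top2a, chr11:99024190-99024439, minus strand: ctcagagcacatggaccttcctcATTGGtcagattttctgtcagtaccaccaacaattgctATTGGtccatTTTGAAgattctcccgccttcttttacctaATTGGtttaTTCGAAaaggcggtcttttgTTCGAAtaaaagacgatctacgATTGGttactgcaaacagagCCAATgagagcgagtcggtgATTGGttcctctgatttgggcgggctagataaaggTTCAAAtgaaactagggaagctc
Ccnb2, chr9:70421555-70421804, minus strand: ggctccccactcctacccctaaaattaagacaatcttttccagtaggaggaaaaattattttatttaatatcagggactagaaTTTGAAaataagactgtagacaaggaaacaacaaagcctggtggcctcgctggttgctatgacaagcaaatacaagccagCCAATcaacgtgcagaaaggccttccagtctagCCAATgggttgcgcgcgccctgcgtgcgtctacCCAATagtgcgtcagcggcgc
Hist1h1b, chr13:21780626-21780875, minus strand: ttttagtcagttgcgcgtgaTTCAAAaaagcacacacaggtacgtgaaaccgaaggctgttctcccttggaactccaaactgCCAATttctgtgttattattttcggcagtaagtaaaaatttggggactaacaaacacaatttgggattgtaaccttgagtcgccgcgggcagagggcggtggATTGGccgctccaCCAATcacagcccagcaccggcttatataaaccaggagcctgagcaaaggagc

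Ube2c and Top2a each held 6 CCAAT matches in the full window, and Ccnb2 and Hist1h1b each held 3. In Ube2c the TTTGAA match lay 29 bases before the start site, inside the stretch left off. Hist1h1b differed from the mitotic genes in carrying a TATAAA match 28 bases before its start, letters that 12.4% of all promoters held and that none of the 10 G2 and M phase genes held. Birc5 and Nusap1 held neither CCAAT nor TTTGAA in this window, although their levels were among the 15 most distinctive. Hist1h2ap was not matched to a single entry.

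Within TAC2, most histone-rich cells were also rich in mitotic transcripts, while a further set of cells was rich in mitotic transcripts alone. After thinning to 10000 UMIs, the median TAC2 cell held 19 histone UMIs (over the replication and linker histone lists) in control and 22 in diabetic. It held 39 and 48 G2 and M phase UMIs. Cells were sorted into 4 classes at 20 UMIs of each list, a value chosen after the data were seen. The class high in both held 226 of 537 control cells (42.1%) and 317 of 660 diabetic cells (48.0%). The class high in G2 and M phase transcripts alone held 160 (29.8%) and 219 (33.2%), the class high in histones alone 39 (7.26%) and 30 (4.55%), and 112 (20.9%) and 94 (14.2%) were below 20 in both. The classes are ranges and not cell types, since 70 control and 72 diabetic cells lay between 15 and 24 histone UMIs and 53 and 73 between 15 and 24 G2 and M phase UMIs.

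**Figure D3:**
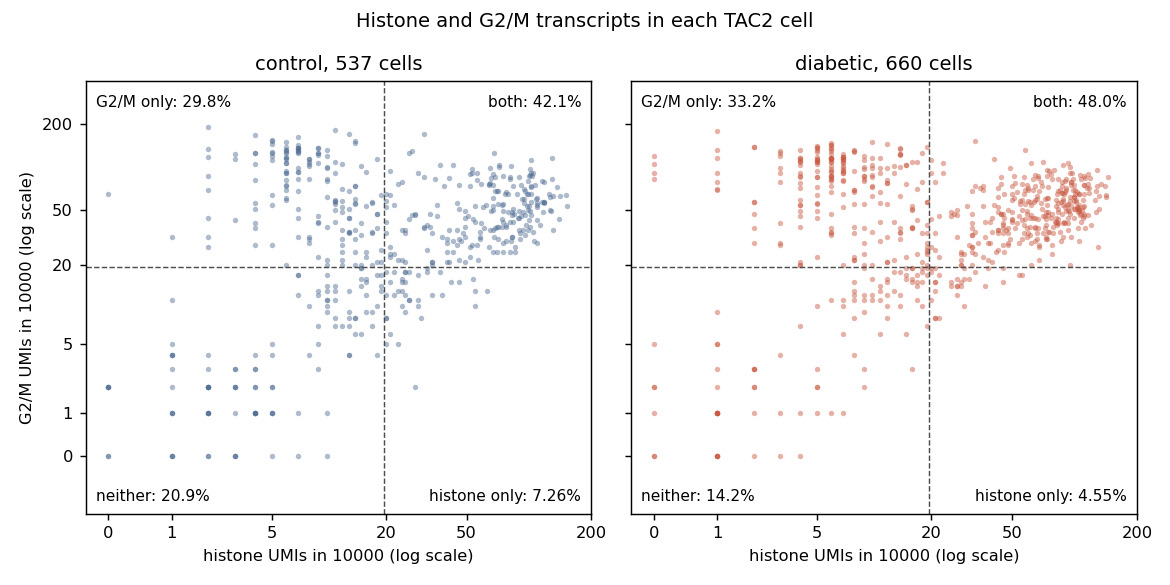
Each point is 1 TAC2 cell thinned to 10000 UMIs, with histone UMIs on the horizontal axis and G2 and M phase UMIs on the vertical axis (both log scales). Dashed lines stand at 20 UMIs and the percentages give the share of cells in each corner. In both libraries many cells are high in both, and others are high in G2 and M phase transcripts with few histone UMIs. Cells in between join these ranges, and further cells at the lower left have little of either.

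The classes differed in the genes that time the end of the cycle. In the class high in G2 and M phase transcripts alone, Ube2c stood at 1021 CPM in the control library and 1053 CPM in the diabetic library, against 306 and 300.1 CPM in the class high in both. Cdc20, which switches on the anaphase-promoting complex, stood at 297 and 278 CPM against 79.5 and 71.9 CPM, and Ccnb1 at 216 and 246 CPM against 71.0 and 67.4 CPM. Pcna went the other way, at 52.5 and 46.4 CPM against 336 and 306 CPM. Top2a was high in both classes, between 422 and 609 CPM. Both libraries thus had the same order of these genes across the classes.

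A tail of TAC2 cells held few mitotic transcripts. In control 66 cells (12.3%) and in diabetic 39 cells (5.91%) had under 5 G2 and M phase UMIs in 10000. These cells were chosen on the G2 and M phase list, so their low Ube2c (11.1 and 11.4 CPM) follows from the choice. Their histones were low as well, with a median of 3 and 2 histone UMIs, and none of them reached 20 S phase UMIs. Their Basal markers summed to 9388 and 10716 CPM, against 8007 and 8486 CPM in the other TAC2 cells, and their LSC markers to 549 and 462 CPM against 1626 and 2197 CPM. Their TAC1 markers summed to 289 and 257 CPM, beside 107 and 108 CPM in the Basal label and 669 and 664 CPM in the TAC1 label. The label therefore covered some cells in which its own markers were near the low levels of the TAC1 and Basal labels.

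Outside TAC2, cells rich in histone or in G2 and M phase transcripts were rare. The markers of the label belong to these lists, so this describes the cells that were clustered and is not a test. At 20 or more histone UMIs the share was 49.3% in control and 52.6% in diabetic TAC2 cells, and it did not pass 1.52% in any other label with over 50 cells. At 20 or more G2 and M phase UMIs it was 71.9% (67.9 to 75.6) and 81.2% (78.0 to 84.1) in TAC2. It was 1.15% and 0.975% in TAC1, and 0 of 1815 and 0 of 1867 cells in Basal. The upper 95% limits of those Basal shares were 0.203% and 0.197%. S phase transcripts were shared with TAC1, with 29.6% and 28.8% of TAC2 and 34.4% and 35.0% of TAC1 cells at 20 or more UMIs. At a minimum of 2 UMIs all 3 shares in TAC2 were above 92% in both libraries, but such a minimum does not separate labels: for histones it was also met by 86.1% and 75.1% of Squam cells and 86.7% and 80.8% of Basal cells.

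The comparison of the diabetic with the control library within TAC2 asked how cycling cells differed in diabetes. A gene was called when its CPM differed by 1.5-fold or more, with 50 or more counts over both libraries and exact 95% Poisson intervals that did not overlap. Of 10852 genes measured, 240 were called higher in diabetic TAC2 cells (2.21%) and 147 lower (1.35%). The median log2 ratio over all measured genes was 0.04. The genes with the largest differences included, on the higher side, immediate early and glucocorticoid response genes and genes of the limbus and conjunctiva. The lower side included Tmprss11d, Fgfbp1, the clock gene Nr1d1, genes highest in Wing, Squam or Conj, and 1 histone. Intervals and calls describe 2 libraries and cover counting error alone.

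Histones moved in opposite directions in diabetic TAC2 cells. Hist1h2ap (chr13:21833026-21833507, minus strand, GRCm38), the most abundant replication histone of the matrix in TAC2, was at 1149.5 CPM in control (Poisson 1131 to 1168) and 649 CPM in diabetic (637 to 661). It was 1.77-fold lower (1.73 to 1.82). The list named 45 replication histones, of which 44 were in the matrix and 35 had 50 or more counts. Of these 35, 12 were called higher and 1, Hist1h2ap, was called lower, and 32 had a ratio above 1. Their median log2 ratio was 0.58, against 0.04 over all measured genes, with 2.21% of all measured genes called higher and 1.35% lower.

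Among the histones called higher, the H4 gene Hist1h4a went from 5.59 to 10.9 CPM (1.94-fold, 1.47 to 2.58) and the H2B gene Hist1h2bf from 3.11 to 5.94 CPM (1.91-fold). The more abundant Hist2h2ac went from 50.3 to 91.4 CPM (1.82-fold) and Hist1h3c from 25.1 to 44.8 CPM (1.78-fold). The second most abundant, Hist1h2ae, was nearly level at 337 and 388 CPM (ratio 1.15), and so was Hist1h4i at 62.8 and 63.3 CPM. With Hist1h2ap included, the summed level of the replication histones was 2259 CPM in the control library and 2123 CPM in the diabetic library, while most members had ratios above 1. The 7 linker histones had a median log2 ratio of 0.38. Hist1h1a was called higher, at 61.1 and 93.5 CPM (1.53-fold), but not with likely doublets left out, with cells thinned, in cells of 10000 to 30000 UMIs, under either class weighting, without marker-positive cells, or in histone-rich or G2 and M phase cells alone, and Hist1h1b stayed just under the rule at 506 and 739 CPM (1.46-fold, 1.42 to 1.505). The linker histone that went the other way was H1fx, at 39.4 and 32.3 CPM.

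**Figure D4:**
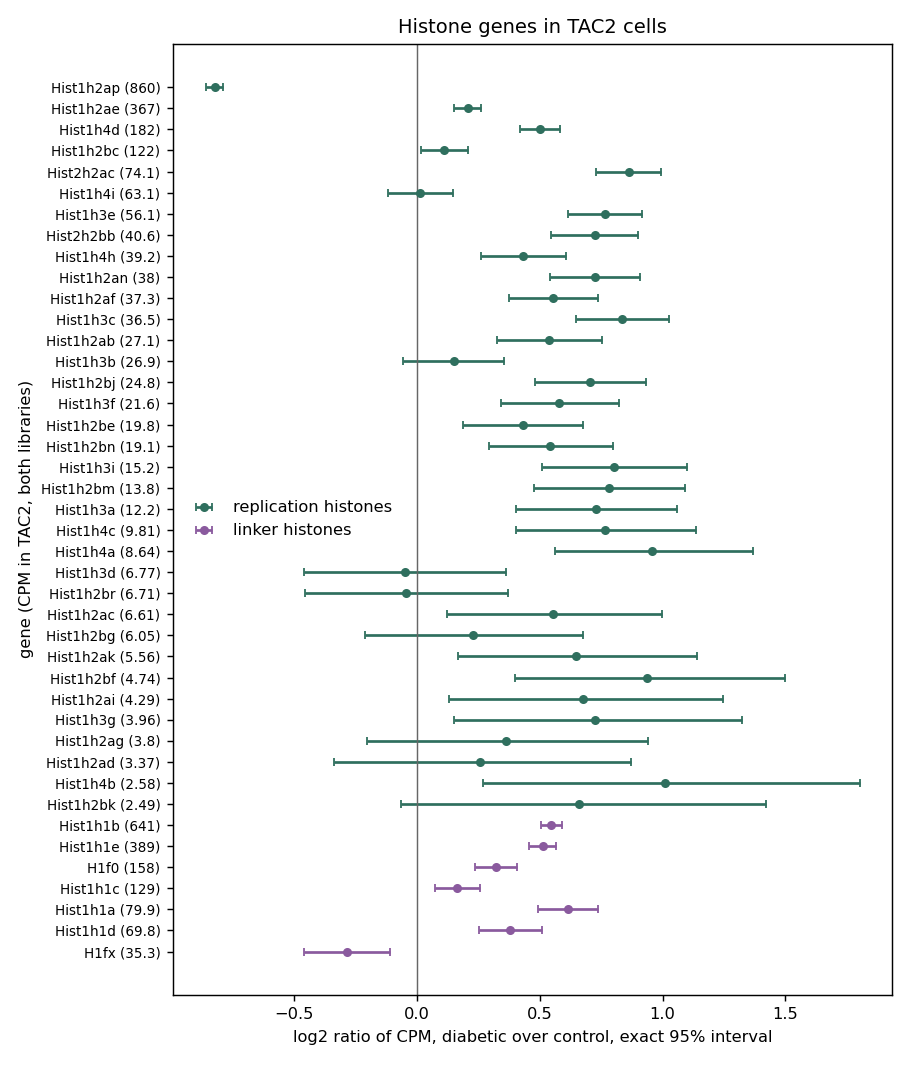
Log2 ratio of CPM, diabetic over control, in TAC2 for each measured histone gene, with exact 95% intervals, ordered within each list by level (CPM in brackets). Hist1h2ap is alone at the far left, with a ratio of 0.564, and 32 of 35 replication histones have ratios above 1.

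Hist1h2ap was called lower both in histone-rich cells and in cells with mitotic transcripts alone. In cells with 20 or more histone UMIs it stood at 2292 CPM in the control library and 1171 CPM in the diabetic library (1.96-fold lower), while Hist1h1b stood at 1012 and 1350 CPM and Hist1h2ae at 678 and 706 CPM in the same cells. In cells high in G2 and M phase transcripts alone it stood at 151 and 61.4 CPM (2.46-fold lower). In cells below 20 UMIs of both lists it stood at 115 and 97.2 CPM, short of the 1.5-fold rule. With the 4 classes given the same weight in both libraries it was 2.03-fold lower. Of the replication histones, 12 were called higher in cells with 20 or more histone UMIs. The classes were cut on the sum of these same histones, Hist1h2ap included. Histone calls within a class therefore partly follow from the cut. With the same class weights 7 members were called higher and the list median was 0.40, and in cells with G2 and M phase transcripts alone no replication histone was called higher, 1 (Hist1h2ap) was called lower, the list median was -0.09 and Hist1h1a had a log2 ratio of -0.91.

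The same gene was lower in other labels too. Hist1h2ap stood at 43.8 CPM (control) and 21.6 CPM (diabetic) in TAC1, at 31.4 and 11.9 CPM in Basal, at 23.9 and 7.602 CPM in LSC, at 19.1 and 10.1 CPM in Wing and at 12.8 and 4.68 CPM in Squam. Conj was the exception, at 7.38 and 12.7 CPM. Hist1h1b, at far lower levels than in TAC2, stood at 20.9 and 32.9 CPM in TAC1, at 7.72 and 8.17 CPM in Basal and at 2.35 and 7.26 CPM in Wing. The levels outside TAC2 are small beside those within it.

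Mitotic genes were nearly level between the libraries. None of the 32 G2 and M phase genes was called in either direction, 29 had a ratio above 1 and the median log2 ratio was 0.16. Ube2c stood at 457 CPM in the control library and 524 CPM in the diabetic library (1.15-fold, 1.11 to 1.18). Nusap1, at 191 and 243 CPM (1.27-fold), and Ccnb2, at 125 and 155 CPM (1.24-fold), had the largest ratios of the list. Birc5 stood at 382 and 392 CPM and Tpx2, a spindle assembly factor, at 116 and 115 CPM. With the 4 classes given the same weight in both libraries the list median was 0.02.

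Other parts of the division machinery had few calls, against 2.21% and 1.35% of all genes. None of 15 mitotic kinases, 13 kinesins, 23 centromere and kinetochore genes, 15 condensin and cohesin genes, 10 cytokinesis genes, 20 cyclins and cyclin-dependent kinases, 18 genes of the anaphase-promoting complex and ubiquitin, or 20 S phase genes was called. All 15 kinases and all 13 kinesins had a ratio above 1, with list medians of 0.21 and 0.19. The S phase list had a median log2 ratio of -0.07, with Pcna at 190 and 185 CPM, the ribonucleotide reductase subunit Rrm2 at 127 and 114 CPM and Tyms, which makes thymidylate, at 156 and 140 CPM. Among 15 inhibitors and quiescence genes, Cdkn2a, the p16 and p19 locus, was called lower at 11.7 and 4.86 CPM (2.41-fold), and Cdkn1c (p57) was called higher at 13.04 and 20.1 CPM (1.54-fold). The antiproliferative gene Btg2 was called higher at 23.1 and 56.6 CPM (2.46-fold). With the classes given the same weight Cdkn1c was no longer called.

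Immediate early genes, which respond within minutes to stress or growth factors, were higher in diabetic TAC2 cells. Of 17 measured, 10 were called higher and none lower, against 2.21% and 1.35% of all measured genes, with a median log2 ratio of 0.70. Fosb went from 21.4 CPM (18.9 to 24.03) to 65.4 CPM (61.7 to 69.3), a 3.06-fold difference. Fos, which pairs with Jun, stood at 196 and 319 CPM (1.62-fold), the phosphatase Dusp1 at 26.2 and 52.6 CPM (2.01-fold) and the RNA-decay factor Zfp36 at 38.6 and 73.4 CPM (1.90-fold). Nr4a1, at 0.311 and 3.22 CPM, and Socs3, at 0.699 and 3.56 CPM, had the largest ratios at very low levels. Fosb stood at 32.7 and 84.8 CPM in TAC1 and at 35.4 and 75.8 CPM in Basal, so TAC2 was below both labels in each library. With cells thinned to equal depth 6 members were called, and in cells with G2 and M phase transcripts alone 4 were.

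Glucocorticoid response genes had 5 of 13 measured members called higher and none lower, against 2.21% and 1.35% of all measured genes. Fkbp5, a chaperone partner of the glucocorticoid receptor, went from 15.2 CPM (13.2 to 17.5) to 51.0 CPM (47.7 to 54.4), a 3.35-fold difference (2.87 to 3.93). After thinning, 14.9% of control and 36.4% of diabetic TAC2 cells held an Fkbp5 UMI, against 4.96% and 31.2% of Basal cells. Tsc22d3, which encodes GILZ, stood at 101 and 156 CPM (1.55-fold), and Cebpd, a transcription factor, at 10.4 and 21.4 CPM (2.05-fold). Fkbp5 stood at 5.47 and 48.0 CPM in Basal and at 14.7 and 53.2 CPM in TAC1. The control level in TAC2 thus lay above that in Basal, while the diabetic levels lay close together. Without the 8% of cells that scored highest as likely doublets, 3 of the 13 were called.

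**Figure D5:**
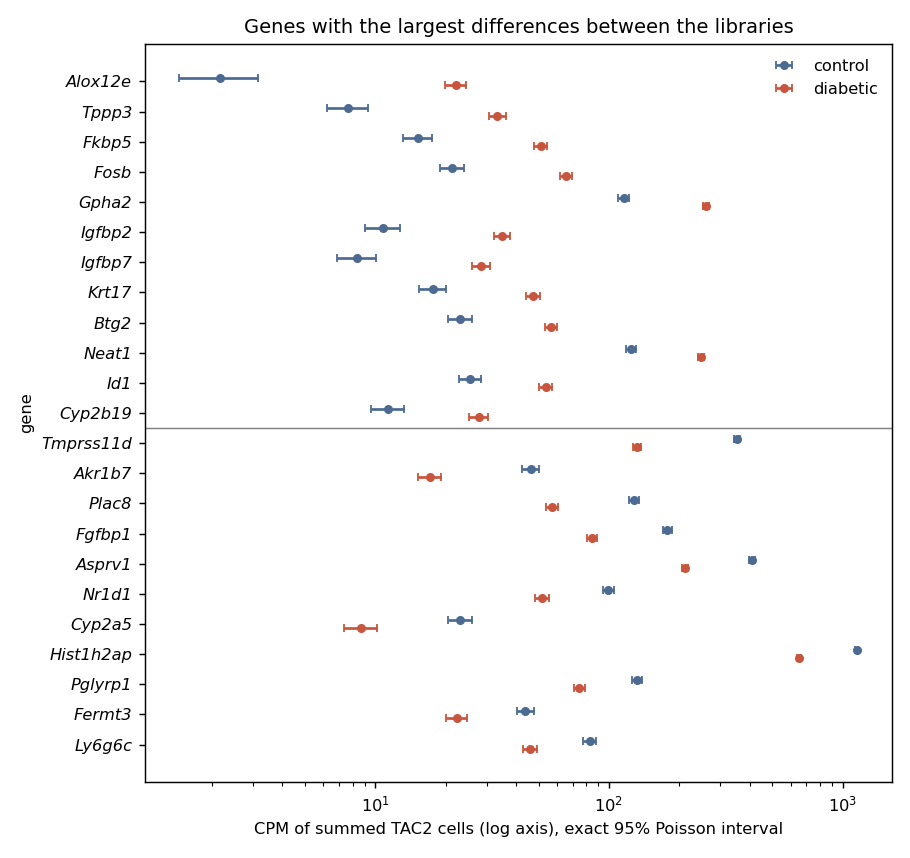
CPM in TAC2 (log axis) of 12 genes higher and 11 genes lower in diabetic with the largest differences, control and diabetic, with exact 95% Poisson intervals; genes higher in diabetic are above the line. The intervals of the libraries do not overlap for any gene drawn, because that was part of the rule that chose them, and Hist1h2ap is the most abundant, at 1149.5 CPM in control.

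Genes of glucose and insulin response had 4 of 14 measured members called higher, against 2.21% of all measured genes. Txnip, which glucose induces and which restrains glucose uptake, stood at 226 CPM (control) and 367 CPM (diabetic) in TAC2 (1.63-fold). The insulin receptor Insr stood at 8.07 and 13.5 CPM (1.67-fold). Larger ratios were seen for Igfbp2 (10.8 and 34.9 CPM, 3.23-fold) and Igfbp7 (8.38 and 28.4 CPM, 3.39-fold), secreted proteins that bind insulin-like growth factors. Igfbp7 had a like pair of values in TAC1 (3.39 and 16.1 CPM) and Basal (3.77 and 16.2 CPM). Igfbp2 did not, at 9.45 and 8.42 CPM in TAC1 and 5.92 and 6.87 CPM in Basal, and its highest level was in LSC, at 222 and 406 CPM.

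Some limbal and conjunctival genes were higher in diabetic TAC2 cells. Beside 2.21% of all measured genes, 3 of 7 LSC markers were called higher: Gpha2, a hormone subunit gene of limbal cells (115 and 261 CPM, 2.26-fold), Ifitm3 (58.1 and 102 CPM) and Igfbp2. The Gpha2 difference was not particular to TAC2. Gpha2 stood at 120 and 268 CPM in TAC1 (2.24-fold) and at 115 and 254 CPM in Basal (2.21-fold). Its ratio was 1.98 in Wing, 1.74 in Squam and 2.01 in Conj. Of 7 measured conjunctival markers 5 were called higher, among them the keratin Krt4 (56.9 and 102 CPM) and Wfdc18 (2.87 and 18.3 CPM), while Krt13 (168 and 152 CPM) and Krt19 (42.0 and 36.8 CPM) were not. After thinning, 8.01% of control and 16.5% of diabetic TAC2 cells held 10 or more UMIs over Gpha2, Apoe and Ifitm3. The shares were 0.622% and 0.244% in Squam, 7.67% and 13.3% in TAC1, and 8.37% and 12.6% in Basal. Gpha2 and Ifitm3 were themselves called higher, so the larger diabetic share in TAC2 partly follows from those calls. For Krt19, Krt4 and Wfdc18 the shares were 1.68% and 3.48% in TAC2, and 0 of 1815 and 0 of 1867 cells in Basal. The upper 95% limits in Basal were 0.203% and 0.197%. Squam cells also reached the minimum of 10 UMIs, at 15.8% and 20.8%, so it is not particular to the conjunctiva.

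Several of the largest ratios rested on cells with such markers. Alox12e, a lipoxygenase, stood at 2.17 and 22.1 CPM (10.1-fold, 6.91 to 15.5), but only 0.372% of control and 3.94% of diabetic TAC2 cells held a UMI of it, against 0.165% and 0.428% of Basal cells. Krt17, a keratin of stressed and limbal epithelium, stood at 17.6 and 47.5 CPM (2.70-fold), and the tubulin-binding Tppp3 at 7.69 and 33.3 CPM (4.33-fold). The 5% of diabetic cells richest in each gene held all UMIs of Alox12e, 97.4% of those of Krt17 and 87.1% of those of Tppp3. When, among cells of 10000 or more UMIs, those with 10 or more UMIs of the LSC, conjunctival or Squam marker trio were left out (55 control and 120 diabetic cells), Alox12e stood at 0.188 and 0.0713 CPM, Krt17 at 1.03 and 0.499 CPM, Tppp3 at 2.34 and 2.92 CPM, Igfbp2 at 4.22 and 5.49 CPM and Id1 at 13.7 and 17.8 CPM, and none was called. Fkbp5 (3.49-fold), Fosb (3.29-fold), Igfbp7 (4.09-fold), Neat1 (2.19-fold) and Btg2 (2.62-fold) were called without them, and so was Gpha2, a member of the LSC trio, at 59.0 and 128 CPM (2.17-fold).

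Neat1, the noncoding RNA that builds nuclear paraspeckles, stood at 124 CPM (control) and 248 CPM (diabetic) in TAC2 (2.00-fold, 1.89 to 2.12). It was seen in most cells, in 62.0% of control and 75.8% of diabetic TAC2 cells after thinning, and stood higher in Basal (214 and 464 CPM). The transcription inhibitor Id1 stood at 25.5 and 53.7 CPM (2.10-fold) and the epidermal cytochrome P450 Cyp2b19 at 11.3 and 27.7 CPM (2.44-fold). Cyp2b19 had a like difference in Basal (16.8 and 60.2 CPM), whereas Id1 stood at 8.99 and 10.2 CPM there.

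On the lower side, Tmprss11d led the list. Like Fgfbp1 and Nr1d1, it was also lower in the diabetic library in LSC, Basal, TAC1, Wing, Squam and Conj. Tmprss11d, a membrane protease of airway and surface epithelia, went from 352 CPM (341 to 362) to 132 CPM (127 to 138), 2.66-fold lower (2.53 to 2.80). It was seen in 86.0% of control and 53.3% of diabetic TAC2 cells after thinning. The shares were 91.3% and 69.8% in Basal and 26.0% and 16.8% in Squam. Fgfbp1, which releases fibroblast growth factors from the matrix, stood at 178 and 84.6 CPM (2.10-fold lower), and the clock repressor Nr1d1 (REV-ERBα) at 99.2 and 51.7 CPM (1.92-fold lower). These 3 genes were also called with likely doublets left out and with marker-positive cells left out.

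A further set of lower genes stood higher in Wing than in TAC2 in both libraries. Of the labels drawn, Pglyrp1, Akr1b7 and Cyp2a5 were highest in Conj. Fermt3 was highest in Wing (122 and 86.8 CPM) and was lower in Squam (22.9 and 12.2 CPM) than in TAC2. Asprv1, a protease of the cornified surface, stood at 410.0 and 211 CPM in TAC2 and at 24933 and 25969 CPM in Squam, and the 5% of TAC2 cells richest in it held 73.4% of its UMIs in control and 82.5% in diabetic. Pglyrp1, an antibacterial protein, stood at 132 and 74.6 CPM, Plac8 at 128 and 57.1 CPM, the kindlin Fermt3 at 43.9 and 22.3 CPM, Ly6g6c at 82.7 and 46.1 CPM and the aldo-keto reductase Akr1b7 at 46.3 and 17.1 CPM. The 6 Squam markers summed to 386 CPM in control and 303 CPM in diabetic TAC2 cells, and the 5 Wing markers to 738 and 618 CPM. Cells with 10 or more UMIs of Dsg1a, Dsc2 and Lypd3, the Wing trio, made up 5.77% of control and 2.12% of diabetic TAC2 cells. The part of those Wing-positive cells in the lower genes was not tested. Without the cells positive for the LSC, conjunctival or Squam trio, Asprv1 stood at 87.6 and 38.8 CPM, Pglyrp1 at 33.0 and 14.9 CPM and Akr1b7 at 32.7 and 8.55 CPM, all still called lower. Without likely doublets, however, Pglyrp1 turned to a log2 ratio of 0.075, and in cells with 20 or more histone UMIs Asprv1 and Pglyrp1 had ratios of 0.836 and 0.878 and were not called. The cytochrome P450 Cyp2a5, at 23.1 and 8.71 CPM, stood at 2.63 and 3.99 CPM without those cells. With every cell given equal weight, Asprv1, Pglyrp1 and Ly6g6c were not called, at log2 ratios of -0.39, -0.32 and -0.49.

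Cholesterol synthesis genes were lower as a list. All 20 measured members had a ratio below 1, 6 were called lower and none higher, against 1.35% and 2.21% of all measured genes, and the median log2 ratio was -0.50. The farnesyl diphosphate synthase Fdps went from 306 to 204 CPM, the sterol oxidase Msmo1 from 102 to 67.8 CPM (1.503-fold lower) and Insig1, which senses sterols, from 37.4 to 21.0 CPM (1.78-fold lower). Hsd17b7 (10.9 and 4.64 CPM, 2.36-fold lower) and Mvd (19.3 and 9.73 CPM, 1.99-fold lower) had the largest ratios. The list stood at 1492 CPM (control) and 1133 CPM (diabetic) in TAC2, against 2454 CPM in the other labels together. It stood lower in TAC1 (1009 and 886 CPM) and Basal (1200 and 941 CPM), and higher in Wing (3594 and 2670 CPM). In Basal 8 of 20 members were called lower (median -0.54), against 274 of 11526 genes. In TAC1 3 of 20 were (median -0.28), against 168 of 11038 genes. Without likely doublets 2 members were called lower in TAC2 and the median was -0.32, with the same sign.

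Interferon response genes had 5 of 16 measured members called lower and 1 higher, against 1.35% and 2.21% of all measured genes, with a median log2 ratio of -0.23. Without likely doublets 2 were called lower and the median was -0.05. Levels were low in TAC2, as Isg15 stood at 11.4 and 5.65 CPM and Irf7 at 7.45 and 4.18 CPM. Ifit1bl1 (15.1 and 3.56 CPM, 4.23-fold lower) had the largest ratio, but in cells with 20 or more histone UMIs its log2 ratio was 0.31. The member called higher was Ifitm3, which is also an LSC marker. With Ifitm3 included, the list summed to 241 CPM in control and 248 CPM in diabetic TAC2 cells, so its total was not lower. Without the cells positive for LSC, conjunctival or Squam markers 1 member was called lower and none higher. The list median was also negative in the nearest labels, with no member called higher. In TAC1 7 of 16 members were called lower (median -0.58), against 168 of 11038 genes. In Basal 8 of 18 were (median -0.39), against 274 of 11526 genes.

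Several housekeeping, stress and signalling lists had no called member, against 2.21% and 1.35% of all measured genes. None of 28 ribosomal protein genes, 23 nuclear genes of oxidative phosphorylation, 13 mitochondrially encoded genes, 16 glycolysis genes, 22 heat shock and unfolded protein genes, 12 Notch genes or 12 Wnt genes was called, with list medians between -0.09 and 0.09 on the log2 scale. Of the nuclear oxidative phosphorylation genes 19 of 23 had a ratio below 1, while 56.2% of all measured genes were above 1. Of 15 corneal identity genes, Aldh1a1, an aldehyde dehydrogenase, was called higher at 66.1 and 103 CPM (1.56-fold), and none of 15 basal layer genes was called. Of 14 tubulin genes and regulators, the abundant Tubb5 (1057 and 1140.2 CPM), Tubb4b (1160.5 and 1151 CPM) and Tuba1b (955 and 962 CPM) were level. The rare neuronal-type tubulins Tubb2a (19.8 and 10.1 CPM) and Tubb2b (18.2 and 11.54 CPM) were called lower and Tppp3 higher, but neither tubulin was called without likely doublets. The DNA damage gene Gadd45a was the single member called of 19, at 10.7 and 5.37 CPM, and Cdkn1a (p21) stood at 63.3 and 52.8 CPM.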

How the data were processed

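The authors deposited a matrix of UMI counts that are whole numbers and unscaled (17492 genes, 17808 cells, 2 libraries). Their cell table gives library and label. It also holds the deposited scores of a 2-dimensional embedding that the authors computed, which were not used. Cell Ranger 5.0.0, Seurat 4 and mm10 appear in the submitters' processing notes, with no role stated, and filters on cells were not stated. TAC2 cells were summed per library and expressed as CPM with exact Poisson intervals. Ratios have exact conditional binomial intervals and shares Clopper-Pearson intervals, all at 95%. The calling script was tested on simulated data.

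Named genes were the 15 leading genes against all other labels, the 10 leading genes against TAC1 and against Basal, and 12 per direction by the log2 ratio after adding 10 CPM, if the higher library reached 20 CPM. Genes for ribosomal proteins, unnamed models and sex-linked markers were not eligible. From each list, up to 2 called members per direction were taken, and the 4 most abundant for cell cycle lists. Other members, and genes lower in TAC2 than in TAC1, were picked after their values were seen. Of the lower genes, 1 that the rule named is not reported here. Members and lists were chosen with earlier results of these data known.

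Scrublet marked 0 cells at its automatic threshold, so the top 8% of scores per library (125 control and 146 diabetic TAC2 cells) were left out in 1 alternative. Reads of near-identical genes (histones, Ifit3 and Ifit3b, Tubb2a and Tubb2b, Akr1b7) could be assigned to either copy. Gene positions came from GENCODE on GRCm38 and promoters from RefSeq. The analysis ran in Python 3.11.15 with scanpy 1.11.5, numpy 2.4.6, pandas 2.3.3, scipy 1.17.1 and matplotlib 3.10.9.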

Additional observations from a re-analysis of the deposited data

Results flagged for a closer look

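In 3 of the 24 genes with the largest differences, the diabetic library was called higher in TAC2 and lower in another label or the reverse, with a ratio of 1.5-fold or more in each. None of these differences between labels was tested. Tppp3 had a ratio of 4.33 in TAC2 and 0.574 in Wing cells, where its control and diabetic levels were 35.1 and 20.1 CPM. Krt17 had a ratio of 2.70 in TAC2 and 0.346 in Squam cells (4.54 and 1.57 CPM). Hist1h2ap had a ratio of 0.564 in TAC2 and 1.72 in Conj cells (7.38 and 12.7 CPM). With smaller ratios whose intervals were also clear of 1, Gpha2 had 2.26 in TAC2 and 0.713 in LSC, Id1 had 2.10 in TAC2 and 0.843 in Wing, 0.810 in Squam and 0.898 in LSC, Asprv1 had 0.515 in TAC2, 1.30 in Conj and 1.04 in Squam, and Ly6g6c had 0.557 in TAC2, 1.07 in Squam and 1.14 in Conj.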

How the results depend on the processing

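No paired analysis was possible because each group is 1 library, and no replicate could be left out. Of the counts of called genes, the 240 higher and 147 lower became 147 and 85 at a minimum of 200 counts, where fewer genes were measured, and stayed within 1.5 times of the main counts in the other settings run (169 to 264 higher, 103 to 180 lower). Median-of-ratios scaling shifted all log2 ratios by 0.03 and gave 211 and 163. Of 46 called genes named by the rule, all 46 kept their call under that scaling, 40 at a minimum of 200 counts, 38 with equal weight for every cell, 38 with cells thinned to 10000 UMIs and 38 in cells of 10000 to 30000 UMIs. Of the 45 that could be measured, 32 kept it without likely doublets and 30 without cells positive for LSC, conjunctival or Squam markers, a setting added after the data were seen.

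The share of TAC2 cells with 2 or more UMIs differed between libraries (diabetic minus control, in percentage points) by -0.94 for histones, 2.44 for G2 and M phase and -1.24 for S phase. For histones the difference was 1.36 at 5 or more UMIs and 3.23 at 20 or more. For G2 and M phase it was 6.38 and 9.33. For S phase it was 1.98 with cells thinned to 5000 UMIs and 3.96 without thinning. The cause was not tested.

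The log2 ratio changed sign for 10 genes. Without marker-positive cells it was -1.40 for Alox12e, -1.05 for Krt17, -0.40 for Cyp2f2 and 0.60 for Cyp2a5. Without likely doublets it was 0.075 for Pglyrp1 and 0.068 for Tubb2a. With equal weight for every cell it was 0.0797 for Cldn23. In histone-rich cells it was 0.31 for Ifit1bl1 and -0.33 for Wfdc18, and in cells with G2 and M phase transcripts alone it was -0.91 for Hist1h1a. The cause was not tested.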
